A study of Mus musculus with 12 samples.

Results

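The axon guidance ligands and receptors are the genes of the Slit, Robo, netrin, UNC5, DCC and neogenin, semaphorin, plexin, neuropilin, ephrin and Eph families. They were taken by gene symbol from the deposited count table, which lists 43271 genes. The rule found 70 genes, and the 48 with a mean raw count of at least 10 over the 12 libraries were tested among 14990 genes that met the same minimum. Of the families, Slit and Robo gave 3 tested genes of 7 listed, netrins and their receptors 7 of 10, semaphorins 14 of 20, plexins and neuropilins 9 of 11, ephrins 8 of 8 and Eph receptors 7 of 14.

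Guidance cues are proteins that steer growing axons and migrating cells. Secreted Slits, netrins and class 3 semaphorins act over a distance, whereas ephrins and most other semaphorins are bound to the membrane and act on neighbouring cells. Robo, UNC5, DCC, neogenin, plexins, neuropilins and Eph receptors bind these cues and change the cytoskeleton and adhesion of the receiving cell. Outside the nervous system the same proteins take part in epithelial boundaries, blood vessel growth and tumour cell migration, and several of them are cut from the cell surface by metalloproteases of the ADAM family.

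MC38CEA is a line of mouse colon adenocarcinoma cells. Poly(A) RNA was sequenced from 4 groups with 3 libraries each, to compare the response to proinflammatory cytokines of cells with and without silenced *Adam17*. The cells of all groups carried an integrated lentiviral shRNA vector and came from selected pools rather than single clones. The 2 unstimulated groups received no cytokine, and expressed either a control shRNA (control cells) or A17.2, an shRNA directed at *Adam17* (A17.2 cells). The 2 stimulated groups expressed the same shRNAs and were treated for 6 h with 10 ng/ml IL1β and 10 ng/ml IFNγ. The notes deposited with the libraries and the methods of the study name different control vectors, and the notes describe theirs as toxic with loss of its cassette. There was no group without a vector, and 1 shRNA stood for *Adam17* silencing. The study reported that A17.2 also lowered ADAM10 in these cells. Effects of *Adam17* loss, of lower ADAM10, of other targets of A17.2 and of the control vector therefore cannot be told apart. The labels number biological replicates 1 to 3 in each group, but nothing says that they were separate cultures, so p-values measure the spread between these libraries, which may be technical.

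The libraries held 16592831 to 35861103 counts. *Adam17* was at 67.5 to 76.1 CPM (read counts per 1e6 reads of TMM-scaled depth) in unstimulated control libraries and at 27.2 to 30.6 CPM in unstimulated A17.2 libraries. With cytokines it was at 96.7 to 129 CPM and 40.0 to 53.3 CPM. The log2 fold changes for A17.2 were -1.32 (standard error 0.15) and -1.26 (standard error 0.15), with adjusted p = 0.000642 and 0.00103 in the quasi-likelihood test of edgeR. None of 10 colon epithelium markers reached 1 CPM on average in any group (summed level 0.528 to 1.24 CPM over the libraries), and *Epcam*, *Krt19*, *Krt20* and *Cdx1* were at 0 in all libraries of at least 1 group, which goes against an epithelial label. All 6 mesenchyme markers were above 1 CPM in every group (summed 4645 to 7548 CPM). Libraries that share a replicate number departed from their group means in the same way, with correlations of 0.331 to 0.865 in 18 pairs against -0.774 to 0.472 in 36 pairs of different number. For this reason a second edgeR fit took the replicate number as a block, and its values are given wherever they changed a call.

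Per kb of exon, receptors were at the top of the tested guidance genes. The exon length of a gene was that of all its annotated exons merged, which can exceed the length of any single transcript. It was 4.67 kb for *Epha2*, 7.72 kb for *Plxnb2* and 11.8 kb for *Nrp2*, and the order depends on it. By mean CPM, *Nrp2* (442) was above *Plxnb2* (328) and *Epha2* (244). The receptor tyrosine kinase gene *Epha2* had the highest mean over all libraries at 52.2 CPM per kb, and the highest in both unstimulated groups (53.2 and 57.3 CPM per kb in control and A17.2 cells). *Plxnb2*, which encodes a receptor for class 4 semaphorins, followed at 42.5 CPM per kb and *Nrp2*, which encodes a co-receptor for class 3 semaphorins, at 37.4 CPM per kb. The order changed with cytokines: *Plxnb2* was highest in stimulated control cells (52.4 CPM per kb, with *Nrp2* at 47.6 and *Epha2* at 47.5) and *Nrp2* in stimulated A17.2 cells (60.9 CPM per kb, with *Epha2* at 51.0 and *Plxnb2* at 44.7). The SDs of these 3 genes in the stimulated groups were 5.19 to 10.5 CPM per kb (n = 3 each), so neighbours in that order lay close to their spread. *Plxna1* was at 17.0 CPM per kb, and the ephrin gene *Efna1*, *Ephb4*, *Sema4b* and *Sema6b* lay between 10.6 and 11.4 CPM per kb. *Neo1*, the gene of the netrin receptor neogenin, was at 7.22, *Ntn1* at 7.17, *Slit2* at 4.93 and *Sema3a* at 4.83 CPM per kb. The Slit receptor genes were low, with *Robo1* at 0.258 and *Robo2* at 0.155 CPM per kb. Just inside the count minimum were *Ntn5* (mean raw count 11), *Epha8* (11.1), *Sema3d* (11.4), *Ntn3* (12.2) and *Sema6d* (14.7), and just outside it *Slit1* (7.92), *Robo3* (7.67) and *Sema6a* (6.42). The tested genes lay on 16 chromosomes, and exons of 9 of them overlapped a gene on the other strand (*Unc5c*, *Plxnb1*, *Plxna1*, *Ephb4*, *Ntn3*, *Ntn5*, *Sema4c*, *Efna3* and *Efna4*). The strand setting of the counting is not given in the sources used here, so reads of such genes may be shared.

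**Figure D1:**
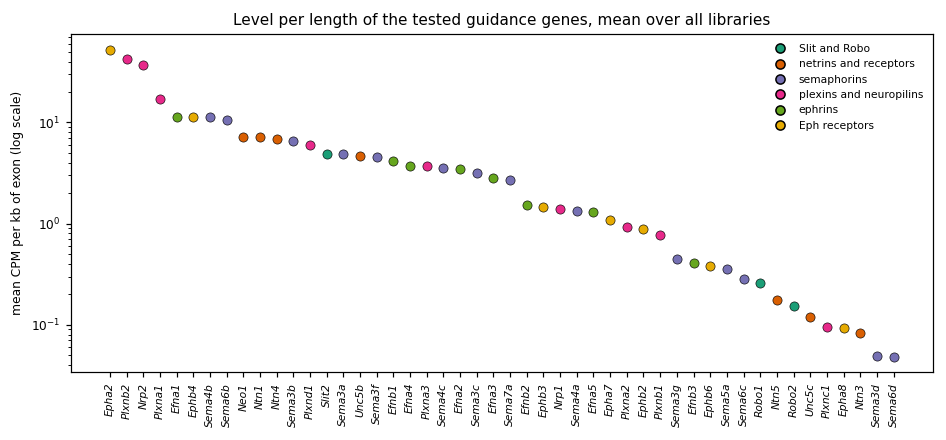
Mean CPM per kb of exon over the 12 libraries (vertical axis, log scale) for each of the 48 tested guidance genes, ordered by level and coloured by family. *Epha2*, *Plxnb2* and *Nrp2* stand at the top, at 52.2, 42.5 and 37.4 CPM per kb over all libraries (with cytokines their order differs), and *Robo1* and *Robo2* near the lower end.

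In A17.2 cells *Robo1*, *Unc5c* and *Sema3b* were higher and *Robo2*, *Sema3a* and *Ephb6* lower than in control cells under both treatments. *Slit2* and *Unc5b* were called higher with cytokines. In unstimulated cells 8 of the 48 tested guidance genes differed between A17.2 and control cells (16.7%, with 6.6% of all tested genes called), 4 of them higher (2.88% of all) and 4 lower (3.73% of all). With cytokines 12 differed (25.0%, against 7% of all), 9 higher (3.36% of all) and 3 lower (3.64% of all). Both comparisons called 6 genes, in the same direction. Of the called genes, *Sema6d*, *Unc5c*, *Epha8* and *Robo2* met the count minimum only through the kind of cells where they were higher. Summed over 3 libraries, control cells held 2 and 9 counts of *Sema6d* without and with cytokines, and 25 and 17 of *Unc5c*. A17.2 cells held 12 and 7 of *Epha8* and 22 and 16 of *Robo2*. Their place among the 48, and so in these shares, depends on the difference itself. The 8 became 5 without unstimulated control replicate 2 or unstimulated A17.2 replicate 1 or 2. The 12 became 6 or 7 without replicate 2 of the unstimulated groups (A17.2 and control), 2 to 5 without any 1 cytokine-treated control library, and 5 or 6 without any 1 cytokine-treated A17.2 library. Both became 0 without replicate 2, or without replicate 3, of every group. With the replicate block the counts were 20 higher and 9 lower without cytokines (16.5% and 18.1% of all genes) and 20 higher and 8 lower with them (19.2% and 19% of all genes), so that the 29 genes were 60.4% of the 48 where 34.6% of all genes were called, and the 28 were 58.3% where 38.2% were called. The groups did not overlap for 25 guidance genes without cytokines (21.9% of all genes) and for 26 with them (25.3% of all genes). *Ntn3*, *Ntn5* and *Sema3d*, called only with the block, met the count minimum only through A17.2 cells. Summed over 3 libraries, control cells without and with cytokines held 15 and 9 counts of *Ntn3*, 17 and 13 of *Ntn5*, and 23 and 20 of *Sema3d*. Their place in the shares with the block and in those without overlap therefore also depends on the difference itself. The median log2 fold change over the 48 was 0.18 without and 0.31 with cytokines, against -0.01 and 0.03 over all tested genes. The guidance genes were chosen with earlier results of these data known. These shares, and those for cytokines below, therefore describe the set and test no excess.

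**Figure D2:**
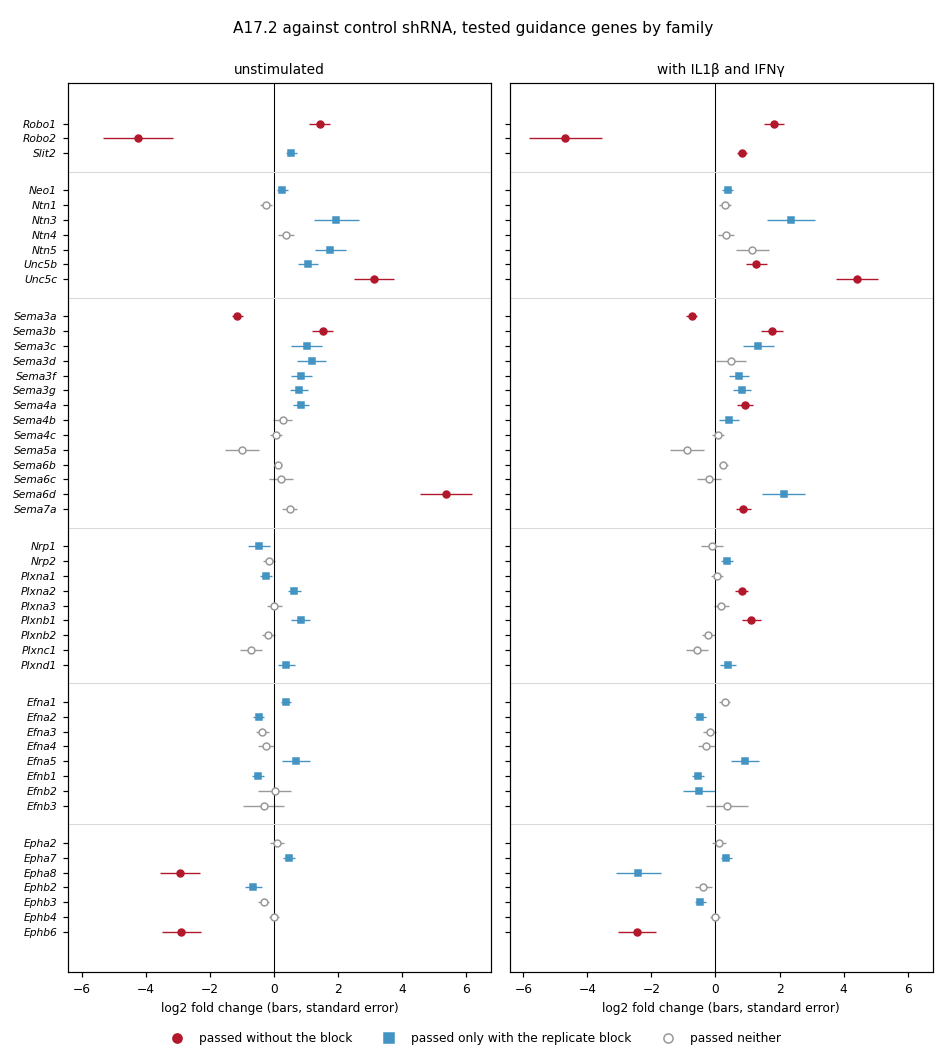
Log2 fold change of A17.2 against control cells (horizontal axis, bars give the standard error, fit without the block) for the 48 tested guidance genes by family, unstimulated on the left and with cytokines on the right. Filled circles passed the edgeR test, squares passed only with the replicate block and open circles passed neither. *Unc5c* lies furthest right with cytokines, at 4.43, and *Robo2* furthest left in both panels, at -4.23 and -4.69.

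The receptor genes *Robo1* and *Robo2* moved in opposite directions. They are neighbours on chromosome 16 of GRCm38 (*Robo1* at 72308306 to 73046095 on the plus strand, *Robo2* at 73891839 to 74411825 on the minus strand), 845743 bases apart with no protein-coding gene between them. Outside this extent RefSeq also places *Robo2* promoters at 75092721 to 75093020 and 75447244 to 75447543. Exons of such longer transcripts may be missing from the exon length used for *Robo2*. *Robo1* was at 1.89, 2.43 and 1.70 CPM in unstimulated control cells (replicates 1 to 3) and at 4.16, 4.91 and 7.15 CPM in A17.2 cells. Stimulated libraries had 2.39, 1.5 and 2.47 CPM with the control shRNA and 5.77, 6.65 and 10.1 CPM with A17.2. Every A17.2 library was above every control library of the same treatment. The log2 fold change was 1.43 (standard error 0.32) without and 1.83 (standard error 0.32) with cytokines, with edgeR adjusted p = 0.0205 and 0.00823. The first of these calls was lost without unstimulated control replicate 1 or 3 or unstimulated A17.2 replicate 3 (edgeR adjusted p 0.0624 to 0.0815).

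*Robo2* was at 10.5, 1.82 and 1.87 CPM in unstimulated control cells and at 0.031, 0.373 and 0.356 CPM in A17.2 cells, from 1, 11 and 10 counts. After stimulation the values were 11.7, 2.28 and 2.04 CPM with the control shRNA and 0.031, 0.396 and 0.210 CPM with A17.2. All A17.2 libraries lay below all control libraries, and replicate 1 held the highest control value and the lowest A17.2 value under both treatments. The log2 fold change was -4.23 (standard error 1.09, edgeR adjusted p = 0.0415) without and -4.69 (standard error 1.14, edgeR adjusted p = 0.0323) with cytokines. Leaving out replicate 1 of every group gave -2.33 and -2.86 (edgeR adjusted p = 0.00478 and 0.00245). The call without cytokines was lost when any 1 of 8 libraries was left out (edgeR adjusted p 0.0529 to 0.137), that is any library of the compared groups but control replicate 3, cytokine-treated control replicate 2, or cytokine-treated A17.2 replicate 2 or 3. Without unstimulated control replicate 1 the log2 fold change was -2.86, and with cytokines it was -3.40 without control replicate 1 and -5.45 without A17.2 replicate 2. The call with cytokines was lost without cytokine-treated control replicate 1 or 2, unstimulated A17.2 replicate 2 or any cytokine-treated A17.2 library (edgeR adjusted p 0.0502 to 0.105). With the block it passed in both comparisons (edgeR adjusted p = 0.000781 and 0.000386). Per kb of exon, *Robo2* was above *Robo1* in replicate 1 of control cells (0.615 against 0.115 CPM per kb without cytokines) and close to it in control replicates 2 and 3 (0.107 against 0.147 and 0.110 against 0.103 CPM per kb). In all 6 A17.2 libraries *Robo1* was above *Robo2*, at 0.252 to 0.610 against 0.00183 to 0.0233 CPM per kb.

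*Slit2* encodes a secreted ligand of both receptors. It was at 68.4, 61.5 and 88.2 CPM in unstimulated control cells and at 95.7, 97.9 and 126 CPM in unstimulated A17.2 cells. Under cytokines the control libraries held 115, 106 and 126 CPM and the A17.2 libraries 195, 217 and 208 CPM. The groups did not overlap in either comparison. With cytokines *Slit2* was higher in A17.2 cells (log2 fold change 0.83, standard error 0.16, edgeR adjusted p = 0.0133), a call lost without cytokine-treated control replicate 2 (edgeR adjusted p = 0.0695). Without cytokines the log2 fold change was 0.55 (standard error 0.16, edgeR adjusted p = 0.0714, and 0.000654 with the block). *Slit1*, below the count minimum, had 1 to 35 raw counts a library, and *Robo3* 1 to 30.

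Among the netrin receptors, A17.2 cells had more *Unc5c* and *Unc5b*, which encode receptors of the repulsive response to netrin. *Unc5c* was at 0.467, 0.0466 and 0.254 CPM in unstimulated control cells, from 18, 1 and 6 counts, and at 1.68, 2.10 and 3.52 CPM in A17.2 cells. With cytokines it was at 0.539, 0.157 and 0.190 CPM in control cells and at 3.88, 7.57 and 7.01 CPM in A17.2 cells. The lowest A17.2 library was above the highest control library. On the log2 scale the differences were 3.12 (standard error 0.62, edgeR adjusted p = 0.0126) and 4.43 (standard error 0.65, edgeR adjusted p = 0.00352), and neither call was lost without any 1 of the 12 libraries. Without control replicate 1 of the same treatment they were 3.94 and 5.12. In GRCm38 the gene lies on chromosome 3 (141465216 to 141834924), and 118 bases of its exons overlap *Gm15688* on the other strand.

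*Unc5b* was at 19.4, 20.1 and 32.5 CPM in unstimulated control cells and at 59.3, 36.4 and 55.6 CPM in A17.2 cells. Stimulated libraries had 8.80, 11.8 and 15.9 CPM with the control shRNA and 41.5, 20.9 and 26.3 CPM with A17.2. The groups did not overlap under either treatment. With cytokines it was higher in A17.2 cells (log2 fold change 1.28, standard error 0.32, edgeR adjusted p = 0.0370), a call lost without unstimulated control replicate 2, any cytokine-treated control library, unstimulated A17.2 replicate 3, or cytokine-treated A17.2 replicate 1 or 3 (edgeR adjusted p 0.0508 to 0.132). Without cytokines it was called only with the block (log2 fold change 1.07, standard error 0.32, edgeR adjusted p = 0.0724, and 0.00137 with the block).

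The netrin genes themselves did not pass the edgeR test for A17.2. *Ntn3* was at 0.233, 0.0466 and 0.212 CPM in unstimulated control cells and at 0.776, 0.440 and 0.819 CPM in A17.2 cells. After stimulation the values were 0, 0.197 and 0.190 CPM with the control shRNA and 1.02, 0.837 and 0.316 CPM with A17.2. No library had more than 33 counts, and the groups did not overlap. Its log2 fold changes were 1.95 and 2.36 (edgeR adjusted p = 0.137 and 0.0854, and 0.0163 and 0.0129 with the block). *Ntn5* was at 0.233, 0.280 and 0.0848 CPM in unstimulated control cells and at 0.869, 0.508 and 0.712 CPM in A17.2 cells. It was at 0.180, 0.236 and 0.190 CPM in control cells with cytokines and at 0.403, 0.264 and 0.701 CPM in A17.2 cells with them. The A17.2 libraries were all above the control libraries of the same treatment, and *Ntn5* was called only without cytokines and with the block (log2 fold change 1.77, edgeR adjusted p = 0.0549, and 0.00672 with the block). *Ntn3* and *Ntn5* have exons in common with genes on the other strand, and *Ntn3* also with a gene on its own strand. The level of *Neo1* without cytokines was 52.9 ± 7.87 CPM with the control shRNA and 63.8 ± 12.2 CPM with A17.2 (SD, n = 3 each). Stimulated cells had 58.4 ± 7.97 and 76.5 ± 6.75 CPM of *Neo1* (SD, n = 3 each), and its log2 fold changes were 0.27 and 0.39 (edgeR adjusted p = 0.456 and 0.215, and 0.0165 and 0.00119 with the block). *Ntn1* had log2 fold changes of -0.25 and 0.29 for A17.2 (edgeR adjusted p = 0.582 and 0.451, and 0.188 and 0.137 with the block).

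Class 3 semaphorins are secreted and act through neuropilins and plexins of the A and D classes. *Sema3a*, the gene of the repellent that binds neuropilin-1, was lower in A17.2 cells. It was at 82.0, 74.1 and 94.5 CPM in unstimulated control cells and at 40.0, 33.4 and 40.8 CPM in A17.2 cells. Under cytokines the control libraries held 82.0, 87.5 and 106 CPM and the A17.2 libraries 63.5, 45.0 and 55.4 CPM. No A17.2 library reached the lowest control library of its treatment. Log2 fold changes were -1.13 (standard error 0.17, edgeR adjusted p = 0.00263) and -0.75 (standard error 0.17, edgeR adjusted p = 0.0226). The first call was kept without any 1 of the 12 libraries, and the second was lost without replicate 2 or 3 of either cytokine-treated group (edgeR adjusted p 0.0645 to 0.0881).

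*Sema3b* moved the other way. It was at 23.5, 13.0 and 12.3 CPM in unstimulated control cells and at 60.3, 40.5 and 40.1 CPM in A17.2 cells. With cytokines it was at 18.4, 10.9 and 13.2 CPM in control cells and at 70.0, 38.2 and 36.5 CPM in A17.2 cells. The groups were apart, and replicate 1 was the highest library of each group. The fitted log2 fold changes were 1.53 (standard error 0.34, edgeR adjusted p = 0.0201) and 1.77 (standard error 0.34, edgeR adjusted p = 0.0121). The first was lost without unstimulated control replicate 2 or 3 or unstimulated A17.2 replicate 1 (edgeR adjusted p 0.0711 to 0.0977), and the second without cytokine-treated control replicate 2 or 3 (edgeR adjusted p = 0.0648 and 0.0538). Per kb of exon *Sema3a* was above *Sema3b* in every control library and below it in every A17.2 library (5.34 to 7.63 against 2.29 to 4.91 CPM per kb in control cells, and 2.41 to 4.58 against 7.63 to 14.7 CPM per kb in A17.2 cells).

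*Sema3c* was at 5.45, 16.8 and 18.7 CPM in unstimulated control cells and at 14.2, 32.5 and 36.8 CPM in A17.2 cells. Stimulated libraries had 7.78, 17.19 and 16.7 CPM with the control shRNA and 24.7, 40.2 and 41.0 CPM with A17.2. Replicate 1 was the lowest library of every group, the A17.2 library was higher in every numbered pair, and the groups overlapped only without cytokines. The log2 fold changes of 1.03 (standard error 0.48) and 1.34 (standard error 0.49) passed only with the block (edgeR adjusted p = 0.272 and 0.129, and 8.66e-05 and 1e-05 with the block). *Sema3d*, which lies next to *Sema3a* on chromosome 5, was at 0.285, 0.187 and 0.339 CPM in unstimulated control cells and at 0.527, 0.508 and 0.854 CPM in A17.2 cells. In cytokine-treated cells it was at 0.359, 0.197 and 0.428 CPM with the control shRNA and at 0.372, 0.308 and 0.666 CPM with A17.2. The groups were apart only without cytokines, where the log2 fold change of 1.19 (standard error 0.45) passed with the block (edgeR adjusted p = 0.161, and 0.0150 with the block). *Sema3f* and *Sema3g* were also higher in A17.2 cells under both treatments with the block only (log2 fold changes 0.73 to 0.87, edgeR adjusted p 0.115 to 0.211, and 0.00126 to 0.0125 with the block).

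Among the membrane-bound semaphorins, *Sema6d* showed the largest fitted difference, from very few reads. Unstimulated control libraries held 0, 2 and 0 counts of *Sema6d* and A17.2 libraries 44, 22 and 44, which are 1.37, 0.745 and 1.57 CPM. The 3 A17.2 libraries together held 51.2 times the control level (95% counting interval 13.8 to 428). The fitted log2 fold change of 5.38 (standard error 0.81, edgeR adjusted p = 0.00302) was kept in direction and call without any 1 of the 12 libraries, but moved to 8.06 without control replicate 2, which held the only reads, and to 4.63 without control replicate 1. With cytokines control libraries held 2, 3 and 4 counts (0.120, 0.118 and 0.190 CPM) and A17.2 libraries 24, 8 and 23 (0.744, 0.352 and 0.807 CPM). These groups did not overlap either, and the log2 fold change was 2.13 (standard error 0.67, edgeR adjusted p = 0.0853, and 0.00686 with the block).

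*Sema4a* was at 6.46, 4.94 and 3.98 CPM in unstimulated control cells and at 10.3, 9.52 and 8.19 CPM in A17.2 cells. After stimulation the values were 5.62, 4.37 and 5.13 CPM with the control shRNA and 12.2, 9.47 and 7.08 CPM with A17.2. The groups were apart under both treatments, with log2 fold changes of 0.86 (standard error 0.25, edgeR adjusted p = 0.0637, and 0.000462 with the block) and 0.93 (standard error 0.25, edgeR adjusted p = 0.0462). The call with cytokines was lost without any 1 of 9 libraries, the exceptions being unstimulated control replicates 1 and 3 and cytokine-treated A17.2 replicate 3 (edgeR adjusted p 0.0565 to 0.176). *Sema7a*, whose product is anchored to the membrane by a lipid and binds plexin C1 and integrins, was at 4.59, 5.69 and 3.90 CPM in unstimulated control cells and at 4.65, 7.65 and 7.79 CPM in A17.2 cells. Cytokine-treated cells had 7.48, 9.92 and 8.65 CPM with the control shRNA and 17.5, 15.4 and 14.7 CPM with A17.2. The groups overlapped without cytokines (log2 fold change 0.50, edgeR adjusted p = 0.263) and were apart with them (log2 fold change 0.87, standard error 0.23, edgeR adjusted p = 0.0446). That call was lost without any 1 library but unstimulated control replicate 3 and unstimulated A17.2 replicate 1 (edgeR adjusted p 0.0504 to 0.136). *Sema4b*, the second most abundant semaphorin gene by CPM, averaged 58.3 ± 9.14 CPM with the control shRNA and 70.6 ± 28.2 CPM with A17.2 in unstimulated cells (SD, n = 3 each). In stimulated cells *Sema4b* had 53.4 ± 9.99 and 72.0 ± 23.1 CPM (SD, n = 3 each) and was called only there and with the block (log2 fold change 0.43, edgeR adjusted p = 0.491, and 0.0242 with the block).

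**Figure D3:**
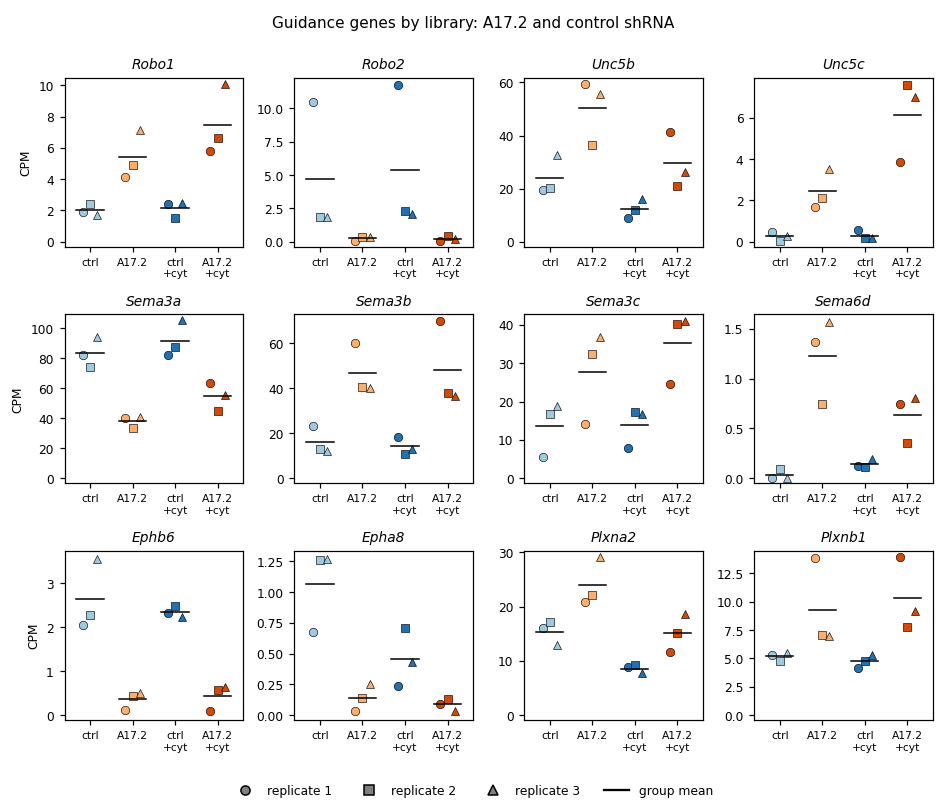
CPM in every library (vertical axes, linear and starting at 0) of 12 guidance genes in control and A17.2 cells without and with cytokines (+cyt). Symbols give the replicate number and lines the group mean. *Robo2* of control cells is highest in replicate 1, at 10.5 and 11.7 CPM. Its control and A17.2 libraries are apart in all 3 replicates, as are those of *Unc5c*, *Sema3a*, *Sema3b* and *Ephb6*.

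Of the plexin and neuropilin genes, *Plxna2* and *Plxnb1* were higher in A17.2 cells with cytokines. *Plxna2*, a receptor gene for class 6 semaphorins and, with neuropilins, for class 3, was at 16.0, 17.1 and 12.9 CPM in unstimulated control cells and at 20.8, 22.1 and 29.1 CPM in A17.2 cells. Under cytokines the control libraries held 8.80, 9.13 and 7.65 CPM and the A17.2 libraries 11.6, 15.1 and 18.6 CPM. The groups were apart under both treatments, with log2 fold changes of 0.65 (standard error 0.20, edgeR adjusted p = 0.0933, and 0.00767 with the block) and 0.82 (standard error 0.21, edgeR adjusted p = 0.0386). The latter call was lost without replicate 2 of either unstimulated group, any cytokine-treated control library, or cytokine-treated A17.2 replicate 2 or 3 (edgeR adjusted p 0.0512 to 0.138). *Plxnb1*, which encodes the receptor of semaphorin 4D, was at 5.29, 4.80 and 5.47 CPM in unstimulated control cells and at 13.8, 7.08 and 6.94 CPM in A17.2 cells. With cytokines it was at 4.13, 4.80 and 5.28 CPM in control cells and at 14.0, 7.79 and 9.15 CPM in A17.2 cells. Replicate 1 was the highest library of both A17.2 groups, and no control library reached the lowest A17.2 library. The log2 fold changes were 0.84 (standard error 0.30, edgeR adjusted p = 0.138, and 0.00872 with the block) and 1.12 (standard error 0.30, edgeR adjusted p = 0.0487), the latter lost without any 1 library but unstimulated A17.2 replicate 1 (edgeR adjusted p 0.0524 to 0.176). The abundant *Plxnb2* and *Plxna1* had log2 fold changes of -0.17 and -0.24 without and -0.23 and 0.04 with cytokines, and of these only *Plxna1* without cytokines passed with the block (edgeR adjusted p = 0.0497). *Plxnb2* averaged 298 ± 53.5 and 265 ± 61.5 CPM in unstimulated and 405 ± 40.1 and 345 ± 56.0 CPM in stimulated control and A17.2 cells, and *Plxna1* 152 ± 29.0, 129 ± 21.9, 166 ± 27.3 and 171 ± 15.6 CPM in the same order (SD, n = 3 each). With the block only, *Plxnd1*, a receptor gene for class 3 semaphorins, was higher under both treatments (log2 fold changes 0.40 and 0.39, edgeR adjusted p = 0.471 and 0.445, and 0.00556 and 0.00535 with the block). In the same way *Nrp2* was higher with cytokines (log2 fold change 0.36, edgeR adjusted p = 0.328, and 0.0134 with the block) and *Nrp1* lower without them (log2 fold change -0.46, edgeR adjusted p = 0.547, and 0.0107 with the block).

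Eph receptors are tyrosine kinases, and EphB6 lacks kinase activity. Of their genes *Ephb6* and *Epha8* were lower in A17.2 cells and none was called higher without the block. *Ephb6* was at 2.05, 2.29 and 3.56 CPM in unstimulated control cells and at 0.124, 0.440 and 0.498 CPM in A17.2 cells. Stimulated libraries had 2.33, 2.48 and 2.23 CPM with the control shRNA and 0.0930, 0.572 and 0.631 CPM with A17.2. The highest A17.2 library was well below the lowest control library under both treatments. On the log2 scale the differences were -2.89 (standard error 0.60, edgeR adjusted p = 0.0162) and -2.46 (standard error 0.60, edgeR adjusted p = 0.0327). The first was lost without unstimulated A17.2 replicate 1 or 2 (edgeR adjusted p = 0.0555 and 0.0520), and the second without any cytokine-treated library or unstimulated A17.2 replicate 2 (edgeR adjusted p 0.0502 to 0.101). With the block both were called (edgeR adjusted p = 4.88e-05 and 0.000169).

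*Epha8* was at 0.674, 1.26 and 1.27 CPM in unstimulated control cells and at 0.0310, 0.135 and 0.249 CPM in A17.2 cells. After stimulation the values were 0.239, 0.708 and 0.428 CPM with the control shRNA and 0.0930, 0.132 and 0.0351 CPM with A17.2. The groups did not overlap, and A17.2 libraries held 1 to 7 counts. Log2 fold changes were -2.92 (standard error 0.63, edgeR adjusted p = 0.0186) and -2.41 (standard error 0.71, edgeR adjusted p = 0.0664, and 0.00519 with the block). The first moved to -3.62 without unstimulated A17.2 replicate 3 and its call was lost without unstimulated control replicate 2 or unstimulated A17.2 replicate 1 or 2 (edgeR adjusted p 0.0601 to 0.0693). The 2 most abundant Eph receptor genes did not pass. *Epha2* was at 249 ± 31.5 and 268 ± 69.4 CPM in unstimulated and 222 ± 49.2 and 238 ± 32.3 CPM in stimulated control and A17.2 cells (SD, n = 3 each, edgeR adjusted p = 0.882 and 0.868). *Ephb4* was at 51.9 ± 6.77 and 52.6 ± 8.17 CPM in unstimulated and 54.0 ± 6.65 and 53.0 ± 3.93 CPM in stimulated control and A17.2 cells (SD, n = 3 each), with log2 fold changes of 0.02 and -0.03 (edgeR adjusted p = 0.973 and 0.957). *Ephb2* averaged 13.2 ± 1.38 and 8.51 ± 2.16 CPM in unstimulated and 12.9 ± 2.88 and 9.95 ± 3.03 CPM in stimulated control and A17.2 cells (SD, n = 3 each), and was lower only without cytokines and with the block (log2 fold change -0.63, edgeR adjusted p = 0.201, and 0.00605 with the block). *Epha7* was higher under both treatments (log2 fold changes 0.48 and 0.34, edgeR adjusted p = 0.151 and 0.310, and 0.00922 and 0.0488 with the block) and *Ephb3* lower with cytokines (log2 fold change -0.47, edgeR adjusted p = 0.166, and 0.0342 with the block), again with the block only.

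None of the 8 ephrin genes passed for A17.2 without the block. At an unadjusted p under 0.05 the edgeR test held 3 of them without and 2 with cytokines. Of all 14990 tested genes, 2912 and 3184 were at that level. With the block *Efna2* and *Efnb1* were lower under both treatments (log2 fold changes -0.47 to -0.54, edgeR adjusted p 0.0123 to 0.0223 with the block) and *Efna5* was higher (log2 fold changes 0.68 and 0.93, edgeR adjusted p = 0.00422 and 0.000678 with the block). *Efna1*, the most abundant of them and a ligand of EphA2, had 21 ± 3.6 and 27.3 ± 0.529 CPM in unstimulated control and A17.2 cells and 15.9 ± 1.40 and 19.3 ± 2.36 CPM in stimulated ones (SD, n = 3 each). It was called higher only without cytokines and with the block (edgeR adjusted p = 0.0108). *Efnb1* averaged 16.9 ± 3.55 and 12.01 ± 0.681 CPM in unstimulated and 17.18 ± 3.01 and 11.8 ± 1.22 CPM in stimulated control and A17.2 cells (SD, n = 3 each). *Efnb2*, a ligand of EphB4, was at 11.8 ± 4.5 and 12.1 ± 4.66 CPM without and 10.4 ± 5.65 and 7.32 ± 3.01 CPM with cytokines (SD, n = 3 each), and was lower in A17.2 cells only with cytokines and the block (log2 fold change -0.52, edgeR adjusted p = 0.644, and 0.0265 with the block).

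IL1β and IFNγ raised *Ntn1*, *Nrp2*, *Slit2* and *Sema6b* in both kinds of cells. In control cells 4 of the 48 guidance genes rose (8.33%, with 3.4% of all tested genes called higher) and none fell (0.153% of all), which is 3.56% of all genes in either direction. In A17.2 cells 5 rose (4.16% of all) and 1 fell (0.387% of all), which is 12.5% of the 48 against 4.55% of all genes. The same 4 genes were called in both. The 4 of control cells became 2 without unstimulated control replicate 2, any 1 stimulated control library or stimulated A17.2 replicate 2. With the block 6 were higher and 7 lower in control cells (11.6% and 7.99% of all genes, 19.6% together) and 10 were higher and 6 lower in A17.2 cells (12.4% and 5.14% of all genes, 17.6% together). The groups did not overlap for 14 guidance genes in control cells (15.4% of all genes) and 13 in A17.2 cells (16.3% of all genes). Markers of neurons and glia moved with the cytokines, from a summed 83.8 to 191 CPM in unstimulated libraries to 416 to 820 CPM, of which *Tubb3* held 79.7 to 818 CPM over the libraries. Of these 9 markers 2 reached 1 CPM in each group, and *Sox10* was at 0 in both control groups. Their part in the values of the guidance genes was not tested.

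**Figure D4:**
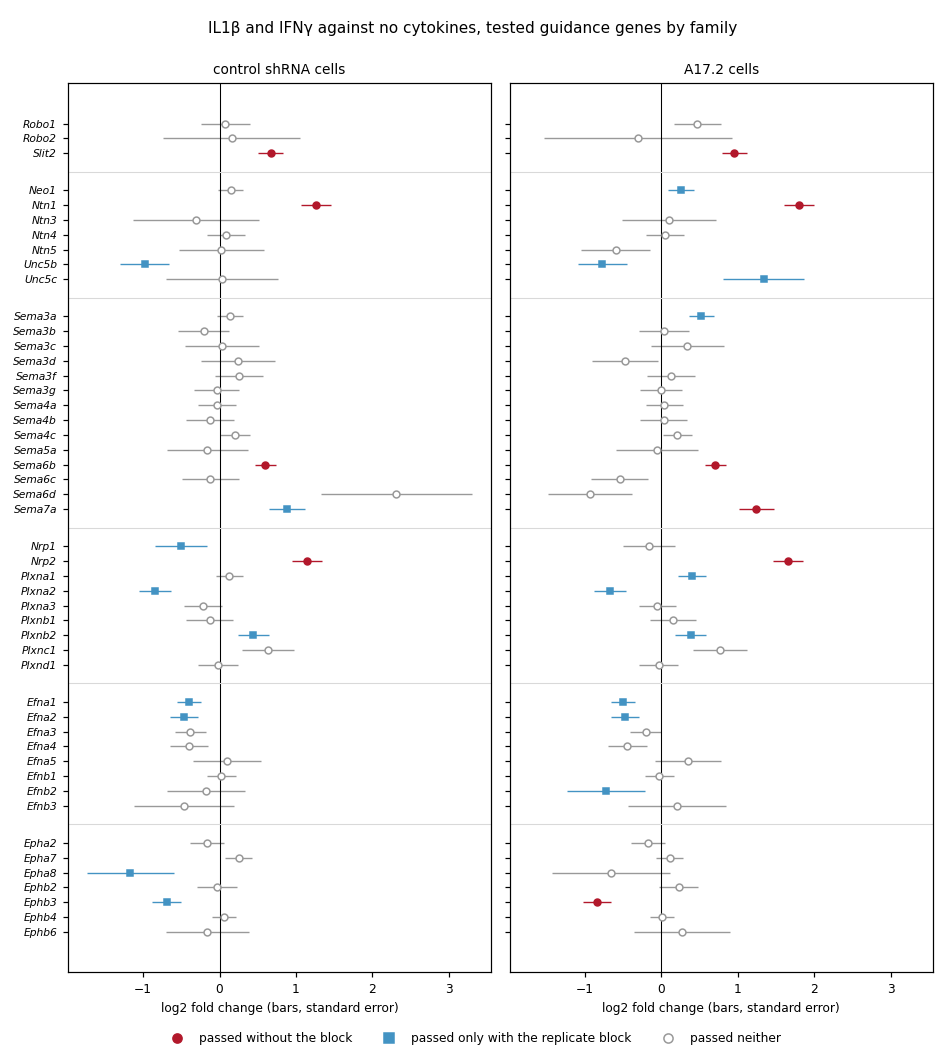
Log2 fold change of IL1β and IFNγ against no cytokine (horizontal axis, bars give the standard error, fit without the block) for the 48 tested guidance genes by family, control cells on the left and A17.2 cells on the right. Filled circles passed the edgeR test, squares passed only with the replicate block and open circles passed neither. *Ntn1* (1.27 and 1.80) and *Nrp2* (1.15 and 1.65) stand out to the right with narrow bars in both panels.

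*Ntn1* encodes netrin-1, a secreted ligand of DCC, neogenin and the UNC5 receptors. It rose from 26.4, 20.6 and 28.1 CPM to 62.9, 60.5 and 57.4 CPM in control cells. In A17.2 cells it rose from 15.7, 20.2 and 27.4 CPM to 66.3, 80.9 and 73.6 CPM. Stimulated and unstimulated libraries were far apart in both. The fitted log2 fold changes were 1.27 (standard error 0.20, edgeR adjusted p = 0.00306) and 1.80 (standard error 0.20, edgeR adjusted p = 0.000172), and neither call was lost without any 1 of the 12 libraries. *Nrp2*, the gene of the co-receptor neuropilin-2, rose from 273, 216 and 276 CPM to 601, 456 and 635 CPM in control cells. In A17.2 cells it went from 207, 212 and 270 CPM to 806, 585 and 774 CPM. All stimulated libraries were above all unstimulated ones. The log2 fold changes were 1.15 (standard error 0.19, edgeR adjusted p = 0.00548) and 1.65 (standard error 0.20, edgeR adjusted p = 0.000287), and both calls were kept without any 1 of the 12 libraries. *Nrp1*, its paralog, was at 17.9 ± 5.42 and 12.6 ± 2.85 CPM in unstimulated and stimulated control cells (SD, n = 3 each) and was lower with cytokines only with the block (log2 fold change -0.51, edgeR adjusted p = 0.708, and 0.0163 with the block). Per kb of exon *Nrp2* stood at 38.5 to 68.1 and *Nrp1* at 0.824 to 1.56 CPM per kb in the 6 stimulated libraries.

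*Slit2*, whose values are given above, rose by a log2 fold change of 0.67 (standard error 0.16, edgeR adjusted p = 0.0469) in control cells and 0.95 (standard error 0.16, edgeR adjusted p = 0.00418) in A17.2 cells. The call in control cells was lost without any 1 library but unstimulated control replicate 3 and unstimulated A17.2 replicate 3 (edgeR adjusted p 0.0536 to 0.220) and was 0.0553 with the size factors of DESeq2 in edgeR. The call in A17.2 cells was kept without any 1 of the 12 libraries. *Sema6b*, which encodes a membrane-bound ligand of class A plexins, rose from 34.6, 28.9 and 29.8 CPM to 45.3, 48.8 and 47.3 CPM in control cells. In A17.2 cells it rose from 28.7, 39.2 and 34.5 CPM to 54.8, 58.4 and 53.7 CPM. The groups were apart in both, with log2 fold changes of 0.60 (standard error 0.14, edgeR adjusted p = 0.0338) and 0.70 (standard error 0.14, edgeR adjusted p = 0.00950). The call in control cells was lost without unstimulated control replicate 2 or 3, any stimulated control library, unstimulated A17.2 replicate 3, or stimulated A17.2 replicate 2 or 3 (edgeR adjusted p 0.0531 to 0.162). *Sema7a* rose in A17.2 cells by a log2 fold change of 1.25 (standard error 0.23, edgeR adjusted p = 0.00705). For control cells it was 0.88 (standard error 0.23, edgeR adjusted p = 0.0746, and 0.00365 with the block), and the difference of the responses was 0.37 (standard error 0.33, edgeR adjusted p = 1.00).

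The gene of the receptor EphB3, *Ephb3*, was the guidance gene that fell. It went from 11.1, 9.79 and 12 CPM to 7.13, 5.86 and 5.30 CPM in A17.2 cells. In control cells it was at 12.7, 13.2 and 15.0 CPM without and at 7.0, 9.84 and 8.46 CPM with cytokines. The groups were apart in both kinds of cells. Its log2 fold change was -0.84 (standard error 0.19, edgeR adjusted p = 0.0211) in A17.2 cells and -0.69 (standard error 0.18, edgeR adjusted p = 0.0757, and 0.00604 with the block) in control cells. The call was lost without unstimulated A17.2 replicate 1 or 3 or stimulated A17.2 replicate 2 or 3 (edgeR adjusted p 0.0642 to 0.106). With the block, *Unc5b* and *Plxna2* were also lower with cytokines in both kinds of cells (log2 fold changes -0.67 to -0.98, edgeR adjusted p 0.00261 to 0.0209 with the block), as were *Efna1* and *Efna2* (log2 fold changes -0.40 to -0.50, edgeR adjusted p 0.00309 to 0.0453 with the block), while *Plxnb2* was higher (0.44 and 0.38, edgeR adjusted p = 0.00345 and 0.00887 with the block). *Unc5c* had a log2 fold change of 1.34 in A17.2 cells (standard error 0.53, edgeR adjusted p = 0.300, and 0.00990 with the block) and of 0.03 in control cells (standard error 0.73). *Epha8* had -1.17 in control cells (standard error 0.57, edgeR adjusted p = 0.485, and 0.0348 with the block). In A17.2 cells the block also called *Sema3a*, *Plxna1* and *Neo1* higher (log2 fold changes 0.52, 0.41 and 0.26, edgeR adjusted p = 0.140, 0.411 and 0.743, and 0.00198, 0.00293 and 0.0237 with the block) and *Efnb2* lower (-0.72, edgeR adjusted p = 0.797, and 0.00224 with the block).

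**Figure D5:**
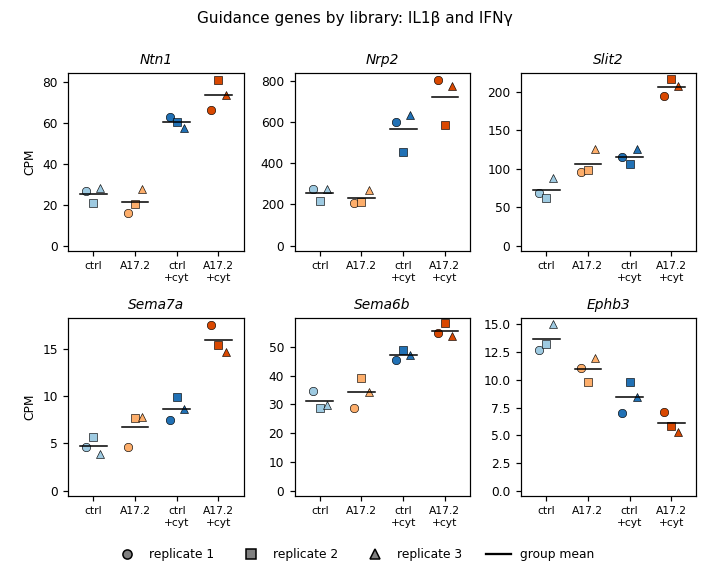
CPM in every library (vertical axes, linear and starting at 0) of the 6 guidance genes called for IL1β and IFNγ in at least 1 kind of cells. Symbols give the replicate number and lines the group mean. *Ntn1* and *Nrp2* of stimulated cells lie above all unstimulated libraries, *Ephb3* below those of the same shRNA.

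No guidance gene passed the edgeR test for a difference in cytokine response between A17.2 and control cells, and without the block neither did any other tested gene. The count was 0 of 48 in edgeR (0% of all genes called, 1 guidance gene at an unadjusted p under 0.05) and 0 with the block (0.474% of all genes called, 0.46% higher and 0.0133% lower, 6 at an unadjusted p under 0.05). DESeq2 also gave 0 without the block (1 at an unadjusted p under 0.05) and 0 with it (6 at an unadjusted p under 0.05). Among all 14990 tested genes, 198 were at that unadjusted level in edgeR and 1465 in edgeR with the block. In DESeq2 the numbers were 274 without and 1321 with the block. The differences of the responses of *Ntn1* and *Nrp2* were 0.54 (standard error 0.27) and 0.51 (standard error 0.27), in the direction of a larger response in A17.2 cells in 3 of 3 numbered pairs. For *Unc5c* the difference was 1.30 (standard error 0.88) and for *Sema6d* -3.25 (standard error 1.13), a value that rests on the 2 counts of unstimulated control cells.

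RefSeq promoters (GRCm38.p6, 250 bases before to 50 after the start) were at hand for 43 of the 48 tested guidance genes. They were searched on both strands, overlaps allowed, for a motif of NF-κB (GGGANNTTCC), an ISRE core (GAAANNGAAA) and AP-1 (TGANTCA), motifs known from genes that answer to cytokines. Of the 57 promoters of tested guidance genes, 0 held the NF-κB letters (1.47% of all 32851 promoters), 2 the ISRE letters (*Plxnc1* and *Sema6b*, 3.44% of all) and 2 the AP-1 letters (*Sema4c* and *Sema6b*, 7.81% of all). Promoters of 3 of the 4 genes that rose in both kinds of cells are shown because they moved together (*Ntn1* had no entry in the table), and capitals mark the ISRE core in the first and AP-1 in the second promoter of *Sema6b*. No match says only that these letters are not in the window.
Nrp2 (chr1:62703067-62703366, plus strand): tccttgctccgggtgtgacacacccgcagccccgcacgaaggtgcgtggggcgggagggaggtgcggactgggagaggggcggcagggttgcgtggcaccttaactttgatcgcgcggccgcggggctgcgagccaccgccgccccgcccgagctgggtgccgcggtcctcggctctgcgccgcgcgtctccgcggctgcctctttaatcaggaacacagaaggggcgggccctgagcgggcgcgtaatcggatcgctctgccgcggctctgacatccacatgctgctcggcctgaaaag
Slit2 (chr5:47982905-47983204, plus strand): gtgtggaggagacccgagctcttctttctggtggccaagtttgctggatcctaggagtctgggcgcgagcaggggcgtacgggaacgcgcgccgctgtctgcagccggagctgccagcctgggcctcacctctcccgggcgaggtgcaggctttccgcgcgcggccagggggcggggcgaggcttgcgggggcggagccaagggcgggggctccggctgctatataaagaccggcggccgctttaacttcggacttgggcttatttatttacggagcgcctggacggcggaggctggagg
Sema6b promoter 1 (chr17:56140294-56140593, minus strand): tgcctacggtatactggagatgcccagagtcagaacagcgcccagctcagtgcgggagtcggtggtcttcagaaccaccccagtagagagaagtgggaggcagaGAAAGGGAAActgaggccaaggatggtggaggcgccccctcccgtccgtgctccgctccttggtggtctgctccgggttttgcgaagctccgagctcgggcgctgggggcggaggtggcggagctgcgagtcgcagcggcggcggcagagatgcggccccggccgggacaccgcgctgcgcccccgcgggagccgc
Sema6b promoter 2 (chr17:56133803-56134102, minus strand): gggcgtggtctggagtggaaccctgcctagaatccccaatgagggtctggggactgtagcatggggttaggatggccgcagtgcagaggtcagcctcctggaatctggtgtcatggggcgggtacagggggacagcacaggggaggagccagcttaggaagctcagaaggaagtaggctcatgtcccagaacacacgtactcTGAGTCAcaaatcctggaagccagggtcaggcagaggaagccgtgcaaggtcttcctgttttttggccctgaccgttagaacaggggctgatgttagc

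Other guidance cues and co-receptors, a list of 53 genes outside the families above with 23 tested, were higher in A17.2 cells for 8 genes without and 8 with cytokines and lower for none, where 2.88% and 3.36% of all tested genes were called higher (16 higher and 0 lower with the block in each, with 16.5% and 19.2% of all genes higher). Their median log2 fold change was 0.65 without and 0.80 with cytokines. This list and those below were chosen with earlier results of these data known. Their shares beside those of all genes therefore describe the lists and test no excess. *L1cam*, an adhesion molecule of growing axons, was at 1.42 ± 0.0573 and 5.99 ± 1.80 CPM in unstimulated control and A17.2 cells (SD, n = 3 each, log2 fold change 2.07, edgeR adjusted p = 0.00306). *Adgrl3*, the latrophilin-3 gene, and *Flrt3*, the gene of a ligand of latrophilins and UNC5 receptors, had log2 fold changes of 2.44 and 1.89 there, and *Slitrk5* 1.56. With cytokines the lowest p-values belonged to *Tenm4* (log2 fold change 1.46), *Slitrk5* (2.02), *Lrig2* (0.80) and *Tenm3* (0.77). Cytokines raised *Rtn4* in control cells (log2 fold change 0.49) and *Flrt2* in A17.2 cells (1.28).

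Intracellular guidance signalling gave 65 tested genes, of which 1 was higher and 0 lower in A17.2 cells without cytokines and 2 higher and 1 lower with them (14 higher and 9 lower, and 6 higher and 18 lower, with the block). Of all tested genes 6.6% and 7% were called in these comparisons, and 34.6% and 38.2% with the block. For the cytokine comparisons the shares of all genes were 3.56% in control and 4.55% in A17.2 cells, and 19.6% and 17.6% with the block. *Arhgef28*, the gene of a guanine nucleotide exchange factor, was higher in both (log2 fold changes 2.48 and 2.45), and *Srgap1*, the gene of a GTPase-activating protein that binds Robo, was higher with cytokines (1.39), where *Maged1* fell by 0.80 on the log2 scale. Cytokines raised *Rnd1*, the gene of a small GTPase that binds plexins, and the actin-binding *Ablim1* in control cells (2.08 and 1.28) and, with *Abl2* (1.14), in A17.2 cells (1.44 and 1.96). No other gene of this list passed for cytokines without the block. With the block the whole list gave 14 higher and 4 lower in control cells and 9 higher and 8 lower in A17.2 cells. The 17 tested proteases and partners that cut guidance proteins include *Adam17*, the target of A17.2, which was lower under both treatments. Beside *Adam17*, *Adam8* (log2 fold change -1.73) and *Mmp2* (-0.72) were lower in unstimulated A17.2 cells. With cytokines *Mmp2* (-0.62) was lower and the γ-secretase subunit gene *Ncstn* (0.59) higher. *Adam10*, also on this list, was not among the genes called for A17.2 under either treatment without the block. The block gave 2 higher and 4 lower of the whole list without cytokines, and 3 higher and 5 lower with them. *Furin*, whose product cuts class 3 semaphorins, rose with cytokines in control cells (1.46) and in A17.2 cells (1.56), and *Adam9* (1.10), *Adam8* (1.75) and *Adam17* (0.65) rose in A17.2 cells (8 higher and 0 lower, and 10 higher and 1 lower, with the block). No gene of these lists passed the edgeR test for a difference in cytokine response between the shRNAs, with or without the block. At an unadjusted p under 0.05 in edgeR the counts were 0 other cues, 1 intracellular gene and 0 proteases without the block, and 2, 5 and 1 with it. Of all 14990 tested genes, 198 were at that level without and 1465 with the block.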

How the data were processed

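Poly(A) RNA of MC38CEA cells was sequenced in 12 libraries, 3 in each of 4 groups. The deposited values were the authors' whole-number read counts per gene, with mm10 named as the genome in the submitters' processing notes. Neither the aligner nor the counter is given in the sources used here. The counts were used with no change, and 10997 of the 43271 listed genes had no read. Groups followed the labels for shRNA and treatment. Library totals of 16592831 to 35861103 counts set the precision, and the counting interval given for *Sema6d* covers counting error only.

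Genes with a mean raw count of at least 10 were fitted over all 12 libraries with edgeR 4.0.16 in R 4.3.3 (TMM scaling, quasi-likelihood test, no block). The 5 differences tested were those between the shRNAs under each treatment, those between the treatments under each shRNA, and the difference of the cytokine responses. P-values were adjusted over all 14990 genes by Benjamini-Hochberg, with a threshold of 0.05, and standard errors follow from the log2 fold change and its F statistic. All 18 pairs of libraries that share a replicate number correlated above 0.1, so the number was taken as a block in a second fit, where the common dispersion fell to 0.0108 from 0.0779. All 12 pairs of replicates differed by more than sampling noise. Alternatives were other filters on low counts, DESeq2 1.42.0 or its size factors, the compared groups alone and fewer libraries. The block without replicate 1 was chosen after seeing the data. The fits were tested on simulated data.

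The guidance genes and the lists of other genes were chosen with earlier results of these data known. Values by library are given for each gene called in at least 1 difference, or called with the block at an absolute log2 fold change of at least 1. The 3 most abundant genes of each family by CPM are also described, as are the 3 with the highest mean count below the minimum. Of each outside list, the 4 genes with the lowest p among those called in a difference are named, up to 10 in all. Marker lists of 2 other cell types were checked, and 0 of 6 endothelium and 2 of 6 leukocyte markers reached 1 CPM on average in a group. Positions and exon lengths are from GENCODE M21 on GRCm38, and promoters from RefSeq on GRCm38.p6. A further motif that was searched in the promoters is not reported here.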

Additional observations from a re-analysis of the deposited data

How the results depend on the processing

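No called difference of a guidance gene given by library reversed under any alternative run, while values near 0 that were not called, such as those of *Plxna1*, *Ephb4* and *Epha2* for A17.2, changed sign without some libraries. The 8, 12, 4, 6 and 0 guidance genes called (A17.2 without and with cytokines, cytokines in control and in A17.2 cells, and the difference of the responses) became 29, 28, 13, 16 and 0 with the replicate block, 30, 28, 12, 14 and 0 with DESeq2 and the replicate block, and 13, 16, 7, 8 and 0 with DESeq2. With the compared groups alone the first 4 counts were 4, 4, 2 and 4. Without replicate 2 of every group they were 0, 0, 0 and 1, and without replicate 3 of every group 0, 0, 1 and 3, from 2 libraries a group. With the replicate block and without replicate 1 they were 30, 24, 10 and 16. Leaving out each library in turn gave 5 to 10, 2 to 12, 2 to 4, 5 to 6 and 0. Other filters and the DESeq2 size factors kept each count within 1.5 times. Of all tested genes edgeR called 6.6%, 7%, 3.56%, 4.55% and 0% in these comparisons, and 34.6%, 38.2%, 19.6%, 17.6% and 0.474% with the replicate block. Shares of all genes are not at hand for the other settings. There, a change in the number of guidance genes called cannot be told from a change over all genes. The replicate block lost none of the 30 calls, while 18 of them did not survive the loss of some single library. Without replicate 1 of every group and without the block, the calls of *Unc5b*, *Sema4a* and *Sema7a* for A17.2 with cytokines were lost. Their log2 fold changes were then 0.76, 0.787 and 0.682 (edgeR adjusted p = 0.119, 0.0594 and 0.0681). The call of *Slit2* for cytokines in control cells was lost as well (0.617, edgeR adjusted p = 0.135). The other cues and co-receptors rose from 8, 8, 1 and 1 calls to 16, 16, 8 and 11 with the replicate block, intracellular genes from 1, 3, 2 and 3 to 23, 24, 18 and 17, and proteases from 3, 3, 1 and 4 to 6, 8, 8 and 11. The protease calls for A17.2 include its target *Adam17* under both treatments. The cause of these moves was not tested. Depth limits *Robo2*, *Unc5c*, *Ephb6*, *Epha8*, *Sema6d*, *Sema3d*, *Ntn3* and *Ntn5*, which had fewer than 10 counts in some libraries.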
